A study of Mus musculus with 24 samples.

Results

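Disease-associated microglia genes are a set of 10 named genes that were followed here in microglia sorted from mouse brain: Trem2, Tyrobp, Axl, Itgax, Clec7a, Cd9, Cst7, Lgals3, Spp1 and Gpnmb. They were chosen by name, and all 10 were found among the 15878 genes with values, by Entrez identifier and RefSeq mouse symbol. The study has 24 libraries in 4 groups of 6, all from wild-type (WT) mice at day 28. WD-Exos libraries came from BCAS mice given WD-Exos, ND-Exos libraries from BCAS mice given ND-Exos, BCAS libraries from BCAS mice given PBS, and Sham libraries from sham mice given PBS, which the sample titles call control. BCAS, bilateral carotid artery stenosis, is a surgical narrowing of both neck arteries that lowers blood flow to the brain; exosomes are small vesicles released by cells, given at 100 µg into the tail vein every 3 days. The labels do not spell out ND or WD, give no age, sex or strain of the mice, and record no exosome injection without BCAS. They do not say whether the 6 libraries of a group came from separate mice, so p-values speak of variation among libraries that may be technical.

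Microglia are the resident macrophages of the brain. In mouse models of neurodegeneration, demyelination and ageing, part of them take on a state named disease-associated, in which homeostatic genes such as P2ry12 and Tmem119 are reduced and lipid-handling, lysosomal and phagocytic genes are raised. The later part of that state depends on TREM2, a surface receptor for lipids and lipoproteins that has no signalling tail of its own and works through the adaptor TYROBP (DAP12), which recruits the kinase SYK. Of the other members, Axl encodes a receptor tyrosine kinase that binds dying cells through GAS6, Itgax the integrin subunit CD11c, Clec7a the beta-glucan receptor dectin-1 and Cd9 a tetraspanin of the cell surface. Cst7 encodes cystatin F, an inhibitor of lysosomal proteases, Lgals3 the lectin galectin-3, Spp1 the secreted protein osteopontin, and Gpnmb a transmembrane glycoprotein of phagocytic cells.

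Promoters of the 3 members that the results turn on most are shown for reference, as the 250 bases before the RefSeq transcription start (GRCm38.p6, written 5′ to 3′ on the strand of the gene). RefSeq promoters were matched for 9 of the 10 members. Capitals mark GGAAGT or its reverse complement, a short form of the sequence bound by PU.1, the ETS family factor that macrophages and microglia depend on.
Itgax, chr7:128129300-128129549, plus strand: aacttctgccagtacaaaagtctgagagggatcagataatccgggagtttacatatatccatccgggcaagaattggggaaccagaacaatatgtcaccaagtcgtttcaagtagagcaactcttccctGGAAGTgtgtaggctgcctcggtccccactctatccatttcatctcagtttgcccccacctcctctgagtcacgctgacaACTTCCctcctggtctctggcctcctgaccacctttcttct
Axl, chr7:25788734-25788983, minus strand: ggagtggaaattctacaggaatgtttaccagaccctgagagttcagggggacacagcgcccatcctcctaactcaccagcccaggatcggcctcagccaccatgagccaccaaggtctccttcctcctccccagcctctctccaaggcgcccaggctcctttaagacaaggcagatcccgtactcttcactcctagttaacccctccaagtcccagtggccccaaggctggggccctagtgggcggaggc
Trem2, chr17:48346151-48346400, plus strand: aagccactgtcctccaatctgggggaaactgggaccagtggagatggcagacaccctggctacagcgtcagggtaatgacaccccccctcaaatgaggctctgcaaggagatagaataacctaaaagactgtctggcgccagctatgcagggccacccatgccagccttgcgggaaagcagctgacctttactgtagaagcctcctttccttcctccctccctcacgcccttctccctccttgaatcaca
Itgax has 2 matches, which begin 121 and 41 bases before the start, and Axl and Trem2 have none in this window. Over all 9 members, 3 hold a match (Itgax, Cst7 and Spp1), and 6485 of 32851 mouse promoters of the same length, 19.7%, hold one as well. A match is a string of letters and not a bound site.

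Library totals ran between 24277709 and 28892412 counts, a library held 8515 to 10794 genes with at least 1 count, and Pearson's r between libraries over genes was 0.714 to 0.837. Values are given as CPM (counts relative to the library total), scaled by the trimmed mean of M values (TMM), with SD over n = 6 libraries. A count of 0 allows up to 3 counts in a library, which is 0.1001 to 0.1296 CPM. This limit covers counting error only, because the amplified reads carry no molecular identifiers. The sorted cells carried the defining genes of microglia. P2ry12, a purinergic receptor, averaged 4741 ± 1369 CPM in WD-Exos, 6004 ± 1719 in ND-Exos, 5328 ± 967 in BCAS and 3745 ± 511 in Sham libraries. Tmem119 averaged 2238 ± 605 CPM in WD-Exos, 1457 ± 317 in ND-Exos, 1846 ± 675 in BCAS and 1625 ± 383 in Sham libraries. In sorted bulk RNA, fewer cells in the state and less RNA per cell cannot be told apart.

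None of the 9 members that could be tested passed an adjusted p of 0.05 in any comparison by edgeR's quasi-likelihood test with Benjamini-Hochberg adjustment over all 10219 tested genes. The comparison of BCAS with Sham asks what reduced blood flow did, the 2 comparisons with BCAS ask what each kind of exosome added, and WD-Exos against ND-Exos compares the exosomes. Between BCAS and Sham 0 of 9 members were called, against 0.0% of all tested genes. For ND-Exos against BCAS 0 of 9 were called, against 0.0196%; for WD-Exos against BCAS 0 of 9, against 0.0%; for WD-Exos against ND-Exos 0 of 9, against 0.0196%; and across the 4 groups 0 of 9, against 0.0294%. Members with an unadjusted p below 0.05 were Tyrobp for ND-Exos against BCAS and across the 4 groups, and Axl for WD-Exos against ND-Exos. DESeq2 and limma-voom also called 0 members in every comparison, although DESeq2 called 109 to 193 genes of all those tested. For 0 of 9 members did the values of 2 compared groups stand fully apart. Among all tested genes that share was 0.372% for BCAS against Sham, 0.186% for ND-Exos against BCAS, 0.186% for WD-Exos against BCAS and 0.519% for WD-Exos against ND-Exos.

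**Figure D1:**
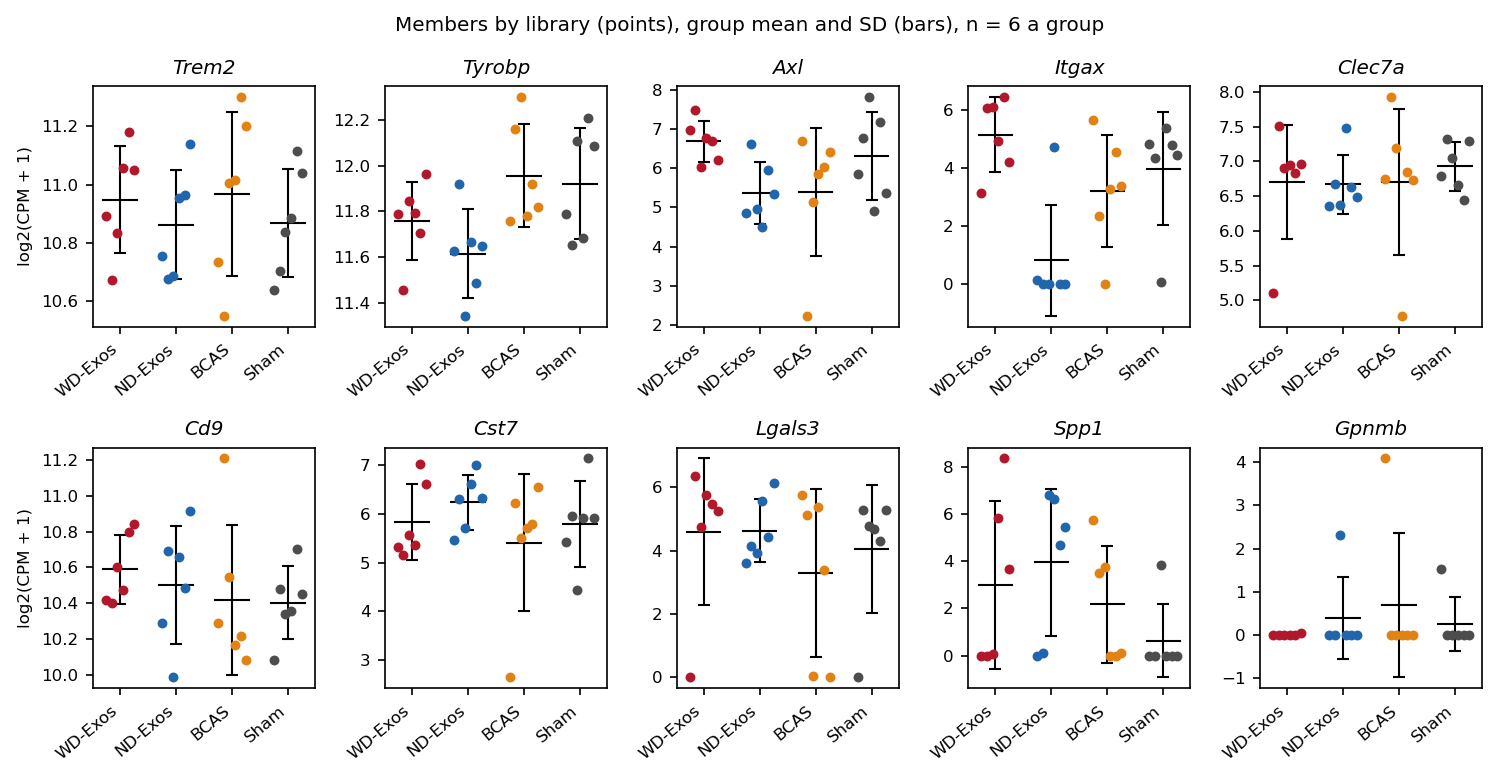
Each panel shows 1 member, with a point for every library on a log2(CPM + 1) axis, a line at the group mean and a bar of 1 SD (n = 6 libraries a group; axes differ between panels). Trem2, Tyrobp and Cd9 stay within a narrow range in all 4 groups, Itgax lies at or near 0 in 5 of 6 ND-Exos libraries, and Gpnmb has a count in 4 of 24 libraries.

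There were 6 members, Trem2, Tyrobp, Axl, Clec7a, Cd9 and Cst7, with a count in every library, and the others came and went. Lgals3 had a count in 21 of 24 libraries, Itgax in 19, Spp1 in 14 and Gpnmb in 4. The spread relative to the mean followed the same division. Over all 24 libraries the coefficient of variation was 14.2% for Trem2, 16.9% for Tyrobp and 21.3% for Cd9. It was 39.3% for Clec7a, 52.3% for Cst7, 67.3% for Axl and 74.8% for Lgals3. For Itgax it was 110.4%, for Spp1 221.4% and for Gpnmb 365.2%.

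Trem2, the lipid receptor at the head of the pathway, varied least of the 10 members relative to its mean. Its lowest, median and highest libraries were at 1629, 2009 and 2322 CPM in WD-Exos, 1634, 1856 and 2254 in ND-Exos, 1496, 2063 and 2522 in BCAS, and 1591, 1859 and 2217 in Sham. All 4 ranges overlapped over most of their length, and both the lowest and the highest library of the series were BCAS libraries. The intervals of the differences were narrow. The fitted fold was 1.08 for BCAS against Sham (95% interval 0.901 to 1.30) and 0.922 for ND-Exos against BCAS (0.769 to 1.10). It was 0.978 for WD-Exos against BCAS (0.815 to 1.17) and 1.06 for WD-Exos against ND-Exos (0.885 to 1.27).

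The labels number the libraries of a group without saying what the numbers stand for. In each of the 4 groups the 3 libraries numbered 4 to 6 all had more Trem2 than the 3 numbered 1 to 3. The means were 2191 ± 114 CPM for numbers 4 to 6 and 1784 ± 139 for numbers 1 to 3 in WD-Exos (SD, n = 3 each). They were 2078 ± 152 for numbers 4 to 6 and 1670 ± 51.1 for numbers 1 to 3 in ND-Exos. In BCAS they were 2316 ± 228 for numbers 4 to 6 and 1750 ± 283 for numbers 1 to 3, and in Sham 2070 ± 166 for numbers 4 to 6 and 1695 ± 122 for numbers 1 to 3. This division was noticed after the values were seen and is given without a test; of all 10219 tested genes, 1 (0.00979%), Trem2 itself, showed it in all 4 groups, and 0 showed the reverse. No other member shared it in all groups. Cst7 averaged 85.2 ± 33.4 CPM for numbers 4 to 6 and 44.8 ± 20.1 for numbers 1 to 3 over all groups (n = 12 each), and was separated in ND-Exos only. Libraries numbered 4 to 6 held 8515 to 10047 genes with a count (median 9234), and those numbered 1 to 3 held 9141 to 10794 (median 9906); the part of this in Trem2 was not tested.

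**Figure D2:**
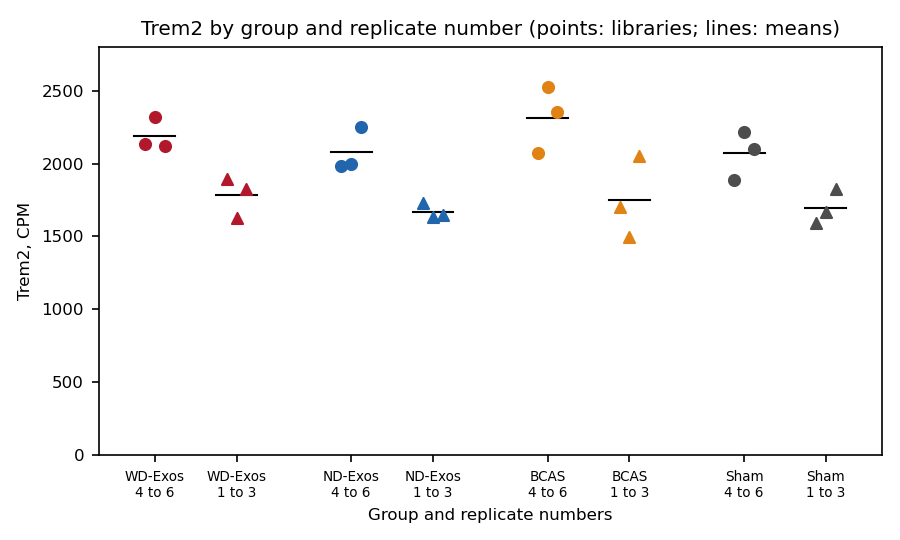
Trem2 in CPM for each library (points) by group and by replicate number, 4 to 6 (circles) or 1 to 3 (triangles), with lines at the means of 3 libraries. In every group the 3 circles lie above the 3 triangles, while the group means stay between 1874 and 2033 CPM.

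Tyrobp, the adaptor through which TREM2 signals, had its lowest mean in ND-Exos libraries. Its lowest, median and highest libraries were at 2808, 3541 and 3988 CPM in WD-Exos, 2597, 3188 and 3875 in ND-Exos, 3465, 3738 and 5041 in BCAS, and 3217, 3945 and 4733 in Sham. Of the 6 ND-Exos libraries, 5 lay below every BCAS library, and the exception, ND-Exos replicate 2, lay among the BCAS values. Tyrobp averaged 3160 ± 430 CPM in ND-Exos and 4012 ± 650 CPM in BCAS, a log2 fold change of -0.34 ± 0.12 (SE; 95% interval -0.60 to -0.09) with an unadjusted p of 0.00922 and an adjusted p of 0.577 by edgeR. The interval leaves out 0, but the difference did not pass adjustment over all genes; over 23 other ways of fitting it the log2 fold change was between -0.43 and -0.24 and the adjusted p between 0.160 and 0.9997. For WD-Exos, at 3482 ± 393 CPM, the difference from BCAS was -0.20 ± 0.12 (log2; 95% interval -0.46 to 0.05) and that from ND-Exos 0.14 ± 0.12 (-0.11 to 0.39). BCAS and Sham (3923 ± 652 CPM) were 0.03 ± 0.12 apart (-0.22 to 0.28).

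Axl, the receptor for GAS6-coated dying cells, had a higher mean in WD-Exos than in ND-Exos libraries. Its lowest, median and highest libraries were at 63.7, 104.5 and 177 CPM in WD-Exos, 21.4, 34.8 and 96.2 in ND-Exos, 3.69, 60.3 and 101.4 in BCAS, and 28.9, 81.8 and 224 in Sham. A WD-Exos library exceeded an ND-Exos library in 34 of 36 pairs, and 4 of 6 WD-Exos libraries lay above all ND-Exos libraries; ND-Exos replicate 2, at 96.2 CPM, was the library within the WD-Exos range. The means were 108 ± 40.5 CPM in WD-Exos and 46.0 ± 28.2 CPM in ND-Exos, which is a log2 fold change of 1.23 ± 0.54 (SE; 95% interval 0.12 to 2.34) with an unadjusted p of 0.0315 and an adjusted p of 0.812 by edgeR. Against BCAS (57.4 ± 35.0 CPM) the WD-Exos difference was 0.91 ± 0.54 (log2; -0.19 to 2.01) and the ND-Exos difference -0.32 ± 0.53 (-1.41 to 0.78). Sham libraries spread most widely, at 100.1 ± 74.7 CPM, and the log2 fold change of BCAS against Sham was -0.80 ± 0.54 (-1.90 to 0.30). That value was -0.40 without Sham replicate 3, the highest Axl library, -1.49 with libraries numbered 1 to 3 only and -0.0784 with those numbered 4 to 6 only. Gas6, which encodes the bridging ligand of AXL, averaged 159 ± 73.2 CPM in WD-Exos and 133 ± 23.9 CPM in ND-Exos. Mertk, a related receptor, averaged 258 ± 81.6 CPM in WD-Exos and 222 ± 58.1 CPM in ND-Exos, and neither was called.

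Itgax, the integrin subunit CD11c, had a count in 6 of 6 WD-Exos libraries and in 2 of 6 ND-Exos libraries. The WD-Exos libraries, by replicate 1 to 6, held 7.79, 66.4, 68.2, 29.4, 85.8 and 17.4 CPM. The ND-Exos libraries held 0.107, 0, 0, 25.3, 0 and 0 CPM, the BCAS libraries 48.9, 4.06, 0, 8.70, 22.4 and 9.40 CPM, and the Sham libraries 27.4, 19.4, 0.0414, 40.9, 26.9 and 21.0 CPM. One ND-Exos library, replicate 4, sat within the range of the other groups, and the other 5 were at or near 0, a level that 1 BCAS and 1 Sham library also had. The means were 45.8 ± 31.8 CPM in WD-Exos and 4.23 ± 10.3 CPM in ND-Exos, with a log2 fold change of 3.44 ± 1.71 (95% interval -0.07 to 6.94; unadjusted p = 0.0542, adjusted p = 0.962 by edgeR). This call turned on ND-Exos replicate 4, since without it Itgax passed the threshold (adjusted p = 0.0209 by edgeR). The fitted log2 fold change was then 10.78, a value that depends on the prior count, since 4 of the 5 remaining ND-Exos libraries had no count. The size of the fold also depended on the model with all libraries kept. It was 8.93 by limma-voom (unadjusted p = 0.000150, adjusted p = 0.103) and 9.64 with a replicate block (unadjusted p = 0.00328, adjusted p = 0.544 by edgeR), while DESeq2 gave 3.48. Without ND-Exos replicate 4 the fit of ND-Exos against BCAS gave an adjusted p of 0.0871, against 1.0 with all libraries. Against BCAS (15.6 ± 18.0 CPM) the WD-Exos difference was 1.56 ± 1.59 (log2; -1.70 to 4.81), and BCAS against Sham (22.6 ± 13.4 CPM) was -0.54 ± 1.55 (-3.73 to 2.66). Itgax is also a gene of dendritic cells, for which 5 other markers had values. These summed to 0 to 1.03 CPM in WD-Exos, 0 to 22.2 in ND-Exos, 0 to 10.5 in BCAS and 0 to 35.9 in Sham libraries. In WD-Exos, Zbtb46 averaged 0.0987 CPM, Xcr1 0.184 CPM and Ccr7 0.0127 CPM, and Flt3 and Cd209a were at 0. The part of dendritic cells in the level of Itgax was not tested.

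**Figure D3:**
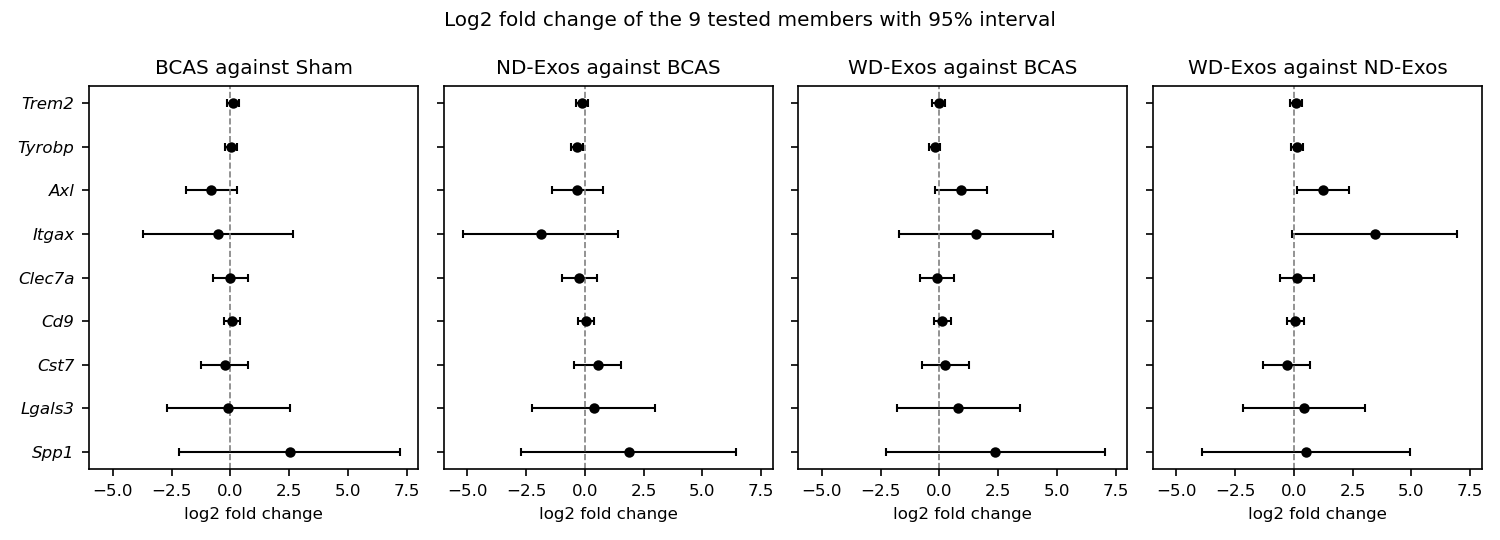
Log2 fold changes (points) with 95% intervals (bars) of the 9 tested members in the 4 comparisons, each n = 6 against n = 6 libraries; the dashed line marks no difference. The intervals leave out 0 for Tyrobp in ND-Exos against BCAS and for Axl in WD-Exos against ND-Exos, neither of which passed adjustment, and are widest for Spp1 and Itgax.

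Clec7a, the dectin-1 receptor, had means that lay close together. Its lowest, median and highest libraries were at 33.3, 120.6 and 180 CPM in WD-Exos, 80.7, 93.4 and 178 in ND-Exos, 26.4, 110 and 242 in BCAS, and 86.5, 120.5 and 160 in Sham. One WD-Exos library (replicate 1) and 1 BCAS library (replicate 4) were far below the rest of their groups, and all groups overlapped. The largest of the 4 differences was ND-Exos against BCAS, -0.23 ± 0.36 on the log2 scale (95% interval -0.98 to 0.51), and the interval of BCAS against Sham was -0.75 to 0.74. Cd9, a tetraspanin that organises membrane receptors, averaged 1551 ± 210 CPM in WD-Exos, 1482 ± 324 in ND-Exos, 1422 ± 482 in BCAS and 1364 ± 191 in Sham libraries. BCAS replicate 2, at 2363 CPM, was the highest library of the series, and the other BCAS libraries lay between 1084 and 1492 CPM. Fitted folds of Cd9 were 1.04 (95% interval 0.818 to 1.33) for BCAS against Sham and 1.09 (0.856 to 1.39) for WD-Exos against BCAS.

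Cst7, the protease inhibitor cystatin F, was spread similarly in all groups. Its lowest, median and highest libraries were at 34.6, 43.2 and 128 CPM in WD-Exos, 42.9, 77.9 and 126 in ND-Exos, 5.28, 53.1 and 92.9 in BCAS, and 20.6, 59.0 and 139 in Sham. The means were 64.0 ± 38.8 CPM in WD-Exos, 78.9 ± 30.4 in ND-Exos, 53.6 ± 29.5 in BCAS and 63.4 ± 40.1 in Sham. It was the 1 tested member with a fitted log2 fold change below 0 in WD-Exos against ND-Exos, at -0.30 ± 0.49 (95% interval -1.30 to 0.70). By median, Spp1 (5.95 CPM in WD-Exos, 33.7 in ND-Exos) and Cd9 (1489 CPM in WD-Exos, 1523 in ND-Exos) were lower as well. For ND-Exos against BCAS the log2 fold change of Cst7 was 0.56 ± 0.49 (-0.44 to 1.56). Lgals3, the gene of galectin-3, averaged 40.03 ± 27.0 CPM in WD-Exos, 29.7 ± 23.2 in ND-Exos, 22.9 ± 22.8 in BCAS and 24.2 ± 14.03 in Sham. It had no count in WD-Exos replicate 1, BCAS replicate 6 and Sham replicate 1 but was counted in each of the 6 ND-Exos libraries. Its intervals were wide, -1.82 to 3.42 for WD-Exos against BCAS and -2.68 to 2.53 for BCAS against Sham on the log2 scale, so differences within these bounds were not detectable.

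Spp1, which encodes osteopontin, was found in 4 of 6 WD-Exos, 5 of 6 ND-Exos, 4 of 6 BCAS and 1 of 6 Sham libraries. The WD-Exos libraries, by replicate 1 to 6, held 0, 0, 0.0368, 56.5, 326 and 11.9 CPM, and the ND-Exos libraries 0, 0.0790, 111, 98.4, 24.5 and 42.9 CPM. The BCAS libraries held 53.0, 10.3, 12.3, 0, 0 and 0.0709 CPM, and the Sham libraries 0, 0, 13.2, 0, 0 and 0 CPM. Levels of at least 1 CPM were reached by 3 WD-Exos, 4 ND-Exos, 3 BCAS and 1 Sham library, and every group also held libraries with none, so the groups overlapped. The log2 fold change of BCAS against Sham was 2.52 ± 2.27 (95% interval -2.16 to 7.21; unadjusted p = 0.278, adjusted p = 0.9996 by edgeR). That of ND-Exos against BCAS was 1.87 ± 2.21 (-2.69 to 6.43). For WD-Exos it was 2.38 ± 2.25 against BCAS (-2.27 to 7.02) and 0.51 ± 2.15 against ND-Exos (-3.92 to 4.94). These values turned on few libraries. BCAS against Sham gave 11.38 without Sham replicate 3 (adjusted p = 0.468 by edgeR), where no Sham library had a count and the value depends on the prior count. It gave 1.04 without BCAS replicate 1 and 9.71 with a replicate block. Without WD-Exos replicate 5, WD-Exos against BCAS gave 0.131 and WD-Exos against ND-Exos -1.75. Without BCAS replicate 1 the values against BCAS were 3.87 in WD-Exos and 3.35 in ND-Exos. Single libraries, WD-Exos replicate 5 and Sham replicate 3, decided the means of their groups: WD-Exos averaged 65.7 ± 129 CPM against a median of 5.95 CPM, and Sham 2.20 ± 5.40 CPM against a median of 0.

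Gpnmb, the glycoprotein of phagocytic cells, was left out of the test because too few libraries had enough counts. It had 1 read in WD-Exos replicate 6 (0.0382 CPM), 119 in ND-Exos replicate 3 (3.97 CPM), 431 in BCAS replicate 1 (16.0 CPM) and 51 in Sham replicate 1 (1.90 CPM), as rounded counts, and none elsewhere. Each group thus had 1 library with a count, and in WD-Exos it lay below the limit that a count of 0 allows.

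Border macrophages, which line the vessels and meninges and can carry Spp1 and Gpnmb, were followed by 8 markers (Mrc1, Pf4, Cd163, Lyve1, Cbr2, Ms4a7, F13a1 and Clec10a), of which 6 could be tested. Their summed level was lowest in WD-Exos, 17.3 to 136 CPM (median 82.9), and was 51.1 to 584 CPM (median 236.5) in ND-Exos, 0.220 to 423 (median 165) in BCAS and 51.6 to 1307 (median 193) in Sham libraries. In WD-Exos, Clec10a was at 0 and Lyve1 averaged 0.00639 CPM. All 6 tested markers were lower in WD-Exos than in ND-Exos, with a median log2 fold change of -2.02, and 0 were called by edgeR (1 with an unadjusted p below 0.05). The 3 libraries with at least 1 CPM of Gpnmb, Sham replicate 1, ND-Exos replicate 3 and BCAS replicate 1, ranked 1, 3 and 4 of the 24 by marker sum, at 1307, 584 and 423 CPM. Spp1 was highest of its group in the library with the highest marker sum in WD-Exos (replicate 5, 136 CPM), ND-Exos (replicate 3) and BCAS (replicate 1). In Sham it was highest in the library that ranked 2 of 24 (replicate 3, 853 CPM). Other libraries went the other way. Sham replicate 1, which ranked 1, had a Spp1 count of 0, and Sham replicate 3 had a Gpnmb count of 0. WD-Exos replicate 4 held 56.5 CPM of Spp1 at a marker sum of 32.5 CPM, which ranked 22. ND-Exos replicate 4 held 98.4 CPM of Spp1 at 209 CPM, which ranked 7. The library with the lowest sum, BCAS replicate 2 at 0.220 CPM, was also the one with the least Axl, 3.69 CPM, and still held 10.3 CPM of Spp1. In WD-Exos, where the median marker sum was lowest, Axl and Itgax had their highest medians. The part of border macrophages in the levels of Spp1, Gpnmb and Axl was not tested.

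**Figure D4:**
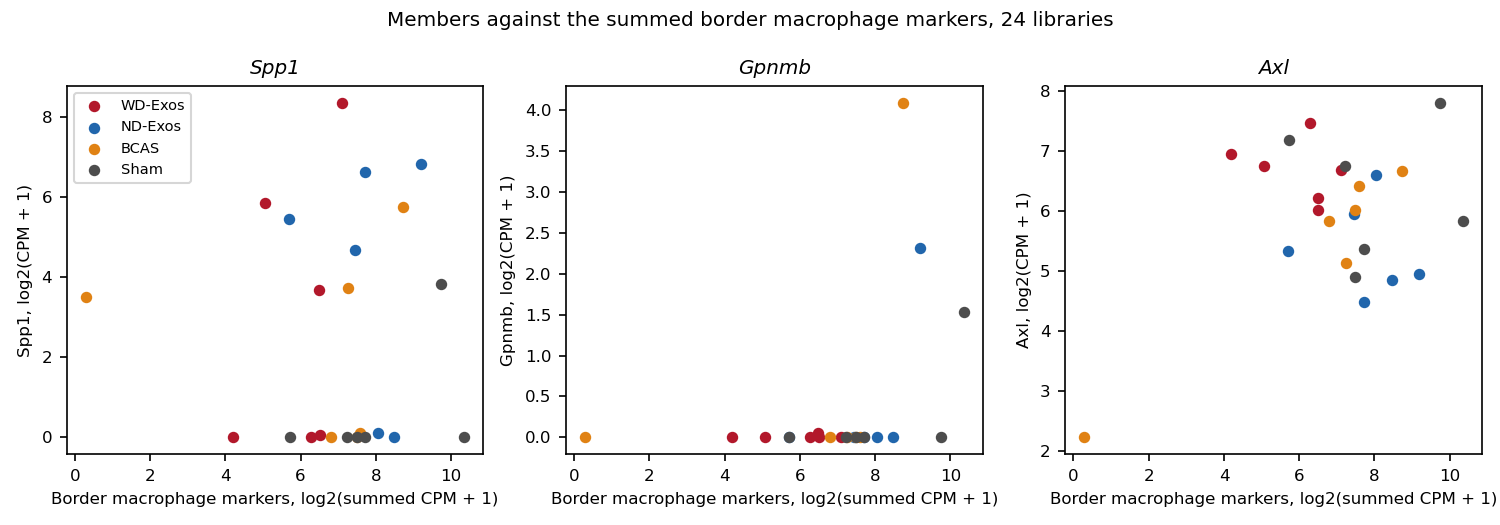
Spp1, Gpnmb and Axl in each of the 24 libraries, as log2(CPM + 1), against the summed level of 8 border macrophage markers, as log2(summed CPM + 1), coloured by group. The 3 libraries with at least 1 CPM of Gpnmb are near the right end of the axis, as is Sham replicate 3 with a Gpnmb count of 0. The library at the far left, BCAS replicate 2, has the lowest Axl.

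Markers of other cells were low or irregular. Neutrophil markers summed to at most 0.829 CPM in any library, and T and NK cell markers to at most 0.148 CPM in WD-Exos, 0.0395 in ND-Exos, 0 in BCAS and 13.7 in Sham. Monocyte markers reached 31.8 CPM in WD-Exos, 19.8 in ND-Exos, 10.1 in BCAS and 21.6 in Sham, and B cell markers 35.4 CPM in WD-Exos, 54.4 in ND-Exos, 53.3 in BCAS and 37.7 in Sham. Oligodendrocyte markers reached 4380 CPM in WD-Exos, 3669 in ND-Exos, 993 in BCAS and 6544 in Sham, with medians of 137 CPM in WD-Exos, 133 in ND-Exos, 174 in BCAS and 176 in Sham. Astrocyte markers stayed between 52.0 and 449 CPM. Endothelial markers reached 78.3 CPM in WD-Exos, 44.4 in ND-Exos, 33.4 in BCAS and 452 in Sham, and mural cell markers 4.11 CPM in WD-Exos, 11.1 in ND-Exos, 0.0432 in BCAS and 361 in Sham. Flt1, an endothelial receptor, averaged 6.37 ± 8.94 CPM in WD-Exos, 5.80 ± 7.62 in ND-Exos, 0.0131 ± 0.0203 in BCAS and 25.5 ± 44.4 in Sham. DESeq2 called it in BCAS against Sham, ND-Exos against BCAS and WD-Exos against BCAS, and edgeR and limma-voom in none. Neuronal markers reached 12.3 CPM in WD-Exos, 22.9 in ND-Exos, 19.2 in BCAS and 49.3 in Sham. Immediate early and heat shock genes, which cell isolation can induce, summed to 759 to 17455 CPM in WD-Exos, 1788 to 3299 in ND-Exos, 362 to 12286 in BCAS and 490 to 1844 in Sham libraries. Their highest sums were in WD-Exos replicate 2, which also had the highest Axl and Clec7a of its group, and in BCAS replicate 2, which had the highest Clec7a and Cd9 and the lowest Axl of the series. The next highest sum, 9989 CPM in WD-Exos replicate 1, came with the lowest Clec7a of its group, 33.3 CPM, and a Lgals3 count of 0. The part of immediate early and heat shock genes in the members' levels was not tested.

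Over the 9 tested members, the direction of the fitted values was 4 higher and 5 lower for BCAS against Sham, with a median log2 fold change of -0.01, beside -0.00 for all genes tested. For ND-Exos against BCAS it was 4 higher and 5 lower, with a median of -0.12 beside 0.01. WD-Exos against BCAS gave 6 higher and 3 lower, with a median of 0.26 beside -0.02, and WD-Exos against ND-Exos 8 higher and 1 lower, with a median of 0.14 beside -0.01. These comparisons share libraries, and the counts are a description.

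The other genes of the pathway and state gave 1 gene that passed the threshold in edgeR. DESeq2 also called H2-D1 in BCAS against Sham and in ND-Exos against BCAS, Lgals3bp and Atf3 in BCAS against Sham, and Irf8 and Itgb5 in WD-Exos against ND-Exos; limma-voom called no other list gene. An unadjusted p below 0.05 by edgeR was reached by 6.04% of all tested genes in BCAS against Sham, 4.47% in ND-Exos against BCAS, 3.71% in WD-Exos against BCAS and 5.33% in WD-Exos against ND-Exos. Of 25 tested further genes of the disease-associated state, 12 were higher and 13 lower in BCAS than in Sham, with a median log2 fold change of -0.05 and none called by edgeR (7 with an unadjusted p below 0.05). The 2 with the smallest p were H2-D1 and B2m, a class I histocompatibility chain and its partner beta-2-microglobulin. H2-D1 averaged 4141 ± 1687 CPM in BCAS and 2421 ± 596 CPM in Sham (adjusted p = 0.376 by edgeR). B2m averaged 16020 ± 2222 CPM in BCAS and 11648 ± 2185 CPM in Sham (adjusted p = 0.394 by edgeR). The same genes were lowest in p for ND-Exos against BCAS: H2-D1 averaged 2147 ± 278 CPM in ND-Exos (adjusted p = 0.577 by edgeR), and B2m 11590 ± 2180 CPM. WD-Exos against ND-Exos gave Capg, an actin-capping protein, with 183 ± 58.7 CPM in WD-Exos and 99.4 ± 27.6 CPM in ND-Exos (adjusted p = 0.548 by edgeR), and H2-D1, with 3233 ± 1042 CPM in WD-Exos. In WD-Exos against BCAS the smallest p were those of Capg (114 ± 44.6 CPM in BCAS) and B2m (12792 ± 3559 CPM in WD-Exos), both with an adjusted p of 0.9999 by edgeR.

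Signalling partners of TREM2 and TYROBP held no called gene in any comparison among 15 tested. An unadjusted p below 0.05 by edgeR was reached by 1 in WD-Exos against BCAS, 1 in WD-Exos against ND-Exos and 0 in the other comparisons. Prkcd, a protein kinase C, averaged 226 ± 98.6 CPM in WD-Exos and 102 ± 39.2 CPM in BCAS (log2 fold change 1.14 ± 0.38, adjusted p = 0.816 by edgeR). Syk, the kinase that TYROBP recruits, averaged 51.2 ± 31.5 CPM in WD-Exos, 54.9 ± 31.2 in ND-Exos, 83.8 ± 32.1 in BCAS and 65.5 ± 29.1 in Sham. Ptpn6, a phosphatase that opposes such signals, averaged 625.1 ± 236 CPM in BCAS and 457 ± 124 CPM in Sham (adjusted p = 0.890 by edgeR), and 501 ± 113 CPM in ND-Exos. Adam10, which sheds TREM2 from the surface, averaged 249 ± 59.7 CPM in BCAS and 194 ± 51.4 CPM in Sham. Vav1, an exchange factor, averaged 334 ± 91.4 CPM in WD-Exos and 224 ± 110.5 CPM in ND-Exos (adjusted p = 0.881 by edgeR).

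Gene lists were chosen with earlier results of these data known, so a gene called in one shows no link to the members by itself. Among 11 tested ligands, receptors and partners of the other members, Lgals3bp was the gene past the threshold. It encodes a secreted protein that binds galectin-3. It averaged 379 ± 112 CPM in ND-Exos and 1298 ± 524 CPM in BCAS, with all 6 ND-Exos libraries below all BCAS libraries (log2 fold change -1.78 ± 0.30, adjusted p = 0.0115 by edgeR), and so fell in ND-Exos. DESeq2 called it as well and limma-voom did not. Against ND-Exos it rose in WD-Exos, to 1713 ± 828 CPM, in all 6 libraries above all ND-Exos libraries (2.18 ± 0.30, adjusted p = 0.000522 by edgeR), and both other tools called it. Groups that do not overlap were found for 0.186% of all tested genes in ND-Exos against BCAS and 0.519% in WD-Exos against ND-Exos. The intervals of Lgals3 for the same comparisons, -2.23 to 2.98 and -2.18 to 3.04 on the log2 scale, hold both 0 and the values of Lgals3bp, so whether Lgals3 moved with it was not detectable. In BCAS against Sham the smallest p were those of Lgals3bp, at 604 ± 199 CPM in Sham (adjusted p = 0.356 by edgeR), and Itgb1, a beta integrin, with 164 ± 59.6 CPM in BCAS and 241 ± 71.8 CPM in Sham. In WD-Exos against BCAS they were those of Itgb5, another beta integrin, with 425 ± 64.0 CPM in WD-Exos and 537 ± 150 CPM in BCAS, and of Mertk. Mertk averaged 258 ± 81.6 CPM in WD-Exos and 176 ± 95.8 CPM in BCAS (adjusted p = 0.9999 by edgeR for both).

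Transcription factors linked to the state held no gene called by edgeR among 10 tested. An unadjusted p below 0.05 was reached by 1 in WD-Exos against BCAS, 3 in WD-Exos against ND-Exos and 0 in the other comparisons. Irf8, a factor that microglia need to develop, averaged 492 ± 164 CPM in WD-Exos and 287 ± 67.9 CPM in ND-Exos (log2 fold change 0.78 ± 0.21, adjusted p = 0.299 by edgeR), with 366 ± 58.4 CPM in BCAS. Mef2c, a factor of homeostatic microglia, averaged 396 ± 54.4 CPM in ND-Exos, 323 ± 66.8 CPM in BCAS and 265 ± 87.7 CPM in Sham. Maf, a leucine zipper factor, averaged 70.8 ± 20.4 CPM in BCAS and 52.6 ± 20.4 CPM in Sham.

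Homeostatic genes, which fall in the disease-associated state, were higher in BCAS than in Sham for 13 of 14 genes, with a median log2 fold change of 0.27 and none called by edgeR (5 with an unadjusted p below 0.05). P2ry13, a purinergic receptor, averaged 1806 ± 620 CPM in BCAS and 1100.4 ± 284 CPM in Sham (adjusted p = 0.392 by edgeR), and P2ry12 had an adjusted p of 0.441 by edgeR. In WD-Exos against ND-Exos 10 were higher and 4 lower (median 0.09; 2 with an unadjusted p below 0.05 by edgeR). Csf1r, the receptor microglia need to survive, averaged 12378 ± 3091 CPM in WD-Exos and 7405 ± 2404 CPM in ND-Exos (adjusted p = 0.513 by edgeR). Tmem119 had an adjusted p of 0.627 by edgeR. In ND-Exos against BCAS 5 were higher and 9 lower (median -0.11), with Csf1r at 10834 ± 3970 CPM in BCAS (adjusted p = 0.917 by edgeR). Siglech, a sialic acid receptor, averaged 3371 ± 748 CPM in ND-Exos and 4053 ± 486 CPM in BCAS. In WD-Exos against BCAS 10 were higher and 4 lower (median 0.01), with Olfml3, a secreted protein of microglia, at 3010 ± 613 CPM in WD-Exos and 2449 ± 490 CPM in BCAS.

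Of 10 tested immediate early and heat shock genes, 9 were higher in BCAS than in Sham, with a median log2 fold change of 1.76. None was called by edgeR (3 with an unadjusted p below 0.05). The 1 lower gene was Hspa1a, the only heat shock gene tested, at 39.7 ± 36.9 CPM in BCAS and 63.8 ± 90.6 CPM in Sham. Atf3, a stress factor, averaged 445 ± 719 CPM in BCAS and 32.4 ± 33.6 CPM in Sham (adjusted p = 0.407 by edgeR), and Egr1 1189 ± 1491 CPM in BCAS and 297 ± 209 CPM in Sham. In WD-Exos against ND-Exos 9 of 10 were higher as well (median 1.40). Hspa1a was again the 1 lower gene, at 27.9 ± 25.5 CPM in WD-Exos and 50.1 ± 35.6 CPM in ND-Exos, and also in WD-Exos against BCAS. Jun averaged 698 ± 1009 CPM in WD-Exos and 174 ± 23.01 CPM in ND-Exos (adjusted p = 0.578 by edgeR), and Junb 742 ± 653 CPM in WD-Exos and 269 ± 105 CPM in ND-Exos. In WD-Exos against BCAS 9 of 10 were higher (median 0.52), led by Jun (188 ± 139 CPM in BCAS) and Fos (1969 ± 1707 CPM in WD-Exos and 1001 ± 921 CPM in BCAS). In ND-Exos against BCAS 2 of 10 were higher (median -0.57). There Atf3 averaged 147 ± 44.5 CPM in ND-Exos, and Ier2 138 ± 76.5 CPM in ND-Exos and 282 ± 420 CPM in BCAS.

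No pair of members was correlated past adjustment from library to library. Over 24 libraries and 36 pairs of tested members, Pearson's r of log2(CPM + 1) was positive in 20 pairs and negative in 16, with a median of 0.04 and a range of -0.30 to 0.40, and 0 pairs passed Benjamini-Hochberg adjustment. The libraries share sorting, amplification and depth, and groups were pooled for these values. Within groups (residuals from the group means, libraries permuted within their group) r ran between -0.43 and 0.60, and 0 pairs passed adjustment. The strongest was Tyrobp and Cd9, with r = 0.60 (permutation p = 0.00319, adjusted 0.115) and rho = 0.53 (permutation p = 0.0169, adjusted 0.272), 0.61 without the 2 libraries farthest from the median of Tyrobp. Pooled, this pair had r = 0.37 (permutation p = 0.0775, adjusted 0.558), with 0.60 among numbers 1 to 3 and -0.00 among numbers 4 to 6. The lowest within groups were Axl and Cd9 at -0.43 and Tyrobp and Itgax at -0.41, where the pooled values were -0.30 and -0.03. Trem2 and Cst7 had r = 0.40 (permutation p = 0.0473, adjusted 0.516) and Spearman's rho = 0.44 (permutation p = 0.0337, adjusted 0.562), 0.52 without the 2 libraries farthest from the median of Trem2, and 0.50 within groups. It was 0.06 among the 12 libraries numbered 4 to 6 and -0.20 among the 12 numbered 1 to 3. These sets were noticed by their Trem2 values and narrow its range, which can lower r. The SD of Trem2 was 179 CPM among numbers 4 to 6 and 153 CPM among numbers 1 to 3, against 277 CPM over all 24 libraries. The split therefore cannot show whether the relation holds within a set. Cst7 and Cd9 had r = 0.40 (permutation p = 0.0516) and rho = 0.55 (permutation p = 0.00629, adjusted 0.226). Their r was 0.45 without the 2 farthest libraries, 0.49 among numbers 4 to 6 and 0.38 among numbers 1 to 3. Trem2 and Tyrobp, receptor and adaptor, had r = 0.20 (permutation p = 0.348, adjusted 0.629) and rho = 0.21 (permutation p = 0.332, adjusted 0.812), with r = 0.35 without the 2 farthest libraries.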

How the data were processed

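Microglial RNA was measured by Smart-seq2 in 24 libraries, 4 groups of 6, per the labels' protocols. The authors' deposited values are estimated counts by Entrez identifier, not scaled between libraries, and 76.8% of genes with values were exactly whole in every library. Aligner, counter and genome build: not given in the sources used here. Identifiers blank in every library (6186 of 22064) were left out, the deposited estimated counts were rounded, and 22002 identifiers had a symbol in the RefSeq table of assembly GRCm38.p6. Genes kept by filterByExpr (minimum 10 counts) were tested with edgeR 4.0.16 (TMM, robust quasi-likelihood fit, no covariate, all 4 groups in 1 fit) in R 4.3.3, with Benjamini-Hochberg adjustment over all tested genes. SE and 95% intervals were derived from the quasi-likelihood F statistic. Correlations used 100000 permutations (SciPy 1.17.1). Alternatives were DESeq2 1.42.0, limma-voom 3.58.1, other size factors and filters, covariates, a replicate block, and leaving out each library. Fits were tested on simulated data. Totals of 24277709 to 28892412 counts a library limit low members most. Members and gene lists were chosen with earlier results of these data known. From each list other than cell type markers, genes past the threshold were named, and otherwise the 2 with the smallest p as values; markers were summed. One gene of these lists is not reported here. Gas6, Mertk beside Axl, Syk across groups, and single marker genes were named after their values were seen, as were genes other tools called. Clec7a and Cd9 overlap annotated non-coding RNAs that are not among the counted genes, and reads of these were not separated here.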

Additional observations from a re-analysis of the deposited data

Results flagged for a closer look

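Dixon's test on log2(CPM + 1) was applied to 36 groups of 6 libraries (9 members, 4 groups). In 9 of them the lowest or highest library stood apart from the others. The chance rate of about 1 in 20 assumes normal values, which members with many counts of 0 do not have. The log scale also widens gaps near 0, so the 9 are not read as an excess over chance. In ND-Exos replicate 4, 2 members stood high: Itgax at 25.3 CPM, where the other ND-Exos libraries were at 0 to 0.107 CPM, and Clec7a at 178 CPM. Spp1 stood at 13.2 CPM in Sham replicate 3 and at 0 in the other Sham libraries. The low ones were Clec7a at 33.3 CPM and Lgals3 at 0 CPM in WD-Exos replicate 1, Axl at 3.69 CPM in BCAS replicate 2, Cst7 at 5.28 CPM in BCAS replicate 1, Itgax at 0.0414 CPM in Sham replicate 3, and Lgals3 at 0 CPM in Sham replicate 1. On the log2 scale Trem2, Tyrobp and Cd9 had no such library in any group. Cd9 in BCAS replicate 2, at 2363 CPM, still lay well above the other BCAS libraries (1084 to 1492 CPM).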

How the results depend on the processing

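The count of called members stayed 0 under every alternative fit but 1: leaving out 1 library gave 0 to 1 for WD-Exos against ND-Exos, where Itgax passed without ND-Exos replicate 4. Of the members' log2 fold changes, 760 kept direction and side of the threshold, 66 reversed and 1 passed it, and the reversals were of values with intervals that include 0; the cause was not tested. With each library's count of detected genes in the model, BCAS against Sham gave -0.0799 for Trem2, -0.0409 for Tyrobp and 0.10 for Clec7a, and Trem2 0.0168 for ND-Exos against BCAS and 0.16 for WD-Exos against BCAS. Size factors of the DESeq2 type and DESeq2 gave 0.00990 and 0.00991 for Clec7a in BCAS against Sham. Limma-voom gave Cd9 -0.0105 in BCAS against Sham, Clec7a 0.0053 and Spp1 -0.61 in WD-Exos against BCAS, and Spp1 -2.88 and Lgals3 -1.30 in WD-Exos against ND-Exos.

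The replicate block gave Lgals3 0.0369 in BCAS against Sham and Spp1 -2.55 in ND-Exos against BCAS, -2.59 in WD-Exos against BCAS and -0.0379 in WD-Exos against ND-Exos, with 0 members called. Over all tested genes no pairing by number was seen. Deviations of same-numbered libraries correlated at -0.06 to 0.06, and 2 of 24 libraries correlated best with their own number. A pairing that touched few genes would not show in this measure.

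Splitting the libraries by number was chosen after seeing the data. With numbers 1 to 3 only, BCAS against Sham gave Itgax 0.16, Clec7a 0.30 and Lgals3 0.44. ND-Exos against BCAS gave Axl 0.16, Cd9 -0.38 and Lgals3 -1.04. WD-Exos against BCAS gave Trem2 0.0372, Cst7 -0.0266, Spp1 -10.54 and Cd9 -0.25, and WD-Exos against ND-Exos gave Spp1 -11.11. These Spp1 values depend on the prior count, since no WD-Exos library there held more than 1 count. Their adjusted p were 0.9575 against BCAS and 0.6599 against ND-Exos by edgeR. With numbers 4 to 6 only, BCAS against Sham gave Tyrobp -0.19 and Cd9 -0.38, ND-Exos against BCAS Clec7a 0.57, WD-Exos against BCAS Tyrobp 0.0064 and Clec7a 0.57, and WD-Exos against ND-Exos Clec7a -0.0086 and Lgals3 -5.962e-05; Spp1, with 1 BCAS library above 0 there, was 12.12 for WD-Exos against BCAS (adjusted p = 0.208 by edgeR) and 10.85 for ND-Exos against BCAS (0.206). Of the correlations, 11 values moved by 0.2 or more under another setting.

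Leaving out 1 library at a time, BCAS against Sham spanned -0.0436 to 0.0941 for Tyrobp, -0.48 to 0.15 for Cst7, -0.32 to 0.20 for Clec7a, -0.15 to 0.12 for Cd9 and -0.52 to 0.18 for Lgals3. ND-Exos against BCAS spanned -0.449 to 0.0888 for Clec7a, -0.0259 to 0.278 for Cd9 and -0.0677 to 0.807 for Lgals3. WD-Exos against BCAS spanned -0.0856 to 0.0653 for Trem2, -0.0595 to 0.513 for Cst7 and -0.29 to 0.24 for Clec7a. WD-Exos against ND-Exos spanned -0.0377 to 0.368 for Clec7a, -1.75 to 0.99 for Spp1 and -0.0225 to 0.163 for Cd9. Over all genes DESeq2 called 193, 141, 109 and 124 in the order BCAS against Sham, ND-Exos against BCAS, WD-Exos against BCAS, and WD-Exos set against ND-Exos, where edgeR called 0, 2, 0 and 2 and limma-voom 10, 1, 1 and 4. Low and irregular counts limit Spp1, Gpnmb, Itgax and Lgals3 most.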
